A study of Homo sapiens with 4 samples.

Results

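Small nucleolar RNA genes were followed in 2 human lung cancer cell lines, A549 and H441, 48 h after transfection with an siRNA named for TAZ (siTAZ) or a control siRNA (siNTC). The members are the genes with a probe set of their own whose symbol starts SNORD, SNORA or SCARNA and a number: 192 of the 18377 genes measured. They comprise 115 SNORD genes, 61 SNORA genes and 16 SCARNA genes. The 4 groups are A549 with siTAZ, A549 with siNTC, H441 with siTAZ and H441 with siNTC, each measured once, on 1 Affymetrix array covering whole transcripts, without replicates. Both siRNAs were delivered with the same lipid reagent. The sources used here do not give the siTAZ sequence or say whether it was a pool. The design asks which genes TAZ, the transcriptional co-activator encoded by WWTR1, regulates in these lines.

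Small nucleolar RNAs are short noncoding RNAs that guide chemical modification of other RNAs by base pairing. Box C/D RNAs (SNORD) carry the methyltransferase fibrillarin to sites of 2'-O-methylation, and H/ACA RNAs (SNORA) carry the pseudouridine synthase dyskerin, mostly on ribosomal RNA. Small Cajal body RNAs (SCARNA) guide the same 2 reactions on spliceosomal RNAs. In human cells most of them lie inside introns of another gene, the host, and are trimmed out of the spliced intron. Several hosts, among them GAS5 and the SNHG genes, are noncoding, and the spliced GAS5 RNA is known for its rapid decay.

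The array does not measure the hosts named for comparison by themselves. None of GAS5, SNHG1, SNHG3, SNHG5, SNHG8 and SNHG12 had a probe set with that single symbol (0 of 6), so their own levels were not analysed here, and the RNAs encoded inside them stand in the text instead. By position in the RefSeq gene table, 190 of the 192 members lie within another gene, and 174 lie within exactly 1. Strand was not checked. GAS5 contains 7 members, SNHG1 2, SNHG5 2 and SNHG8 1, and none lies within SNHG3 or SNHG12 alone.

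The start regions of 6 hosts are shown because the members discussed most below lie inside them. Each line gives 50 bases before and 50 bases from the annotated first base, 5′ to 3′ on the gene's strand, from RefSeq on GRCh38.p14. Capitals mark the unbroken run of C and T that begins at the annotated first base. The windows are GAS5, chr1:173868996-173869095, minus strand, SNHG1, chr11:62855836-62855935, minus strand, and SNHG5, chr6:85678684-85678783, minus strand. They are followed by SNHG8, chr4:118278712-118278811, plus strand, SNHG29, chr17:16438937-16439036, plus strand, and RABGGTB, chr1:75786206-75786305, plus strand.
GAS5: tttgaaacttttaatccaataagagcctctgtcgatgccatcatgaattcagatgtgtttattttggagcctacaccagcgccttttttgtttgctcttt
SNHG1: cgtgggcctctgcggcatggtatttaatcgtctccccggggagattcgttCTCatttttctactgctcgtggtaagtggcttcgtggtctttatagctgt
SNHG5: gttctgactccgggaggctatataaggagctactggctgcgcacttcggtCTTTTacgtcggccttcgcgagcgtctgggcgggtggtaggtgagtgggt
SNHG8: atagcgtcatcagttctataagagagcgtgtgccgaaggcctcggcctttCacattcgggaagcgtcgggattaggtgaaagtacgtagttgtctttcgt
SNHG29: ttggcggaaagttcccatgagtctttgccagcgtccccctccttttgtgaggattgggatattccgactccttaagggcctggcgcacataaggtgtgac
RABGGTB: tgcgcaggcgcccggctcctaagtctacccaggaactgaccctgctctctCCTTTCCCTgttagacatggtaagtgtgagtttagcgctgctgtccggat
RABGGTB had the longest run of the 6, with 9 bases, and SNHG5 had 5, SNHG1 3 and SNHG8 1, whereas GAS5 and SNHG29 had 0. Each value is for 1 annotated start, so a run at another start of the same gene was not read. Of the comparison hosts not printed, SNHG12 had a run of 11 bases and SNHG3 had 0. A pyrimidine run at the first base is the mark of the terminal oligopyrimidine class of transcripts, to which ribosomal protein genes and many snoRNA hosts belong. A window counted as having it where the first base was C and the run held at least 5 bases of C or T. That was so in 25 of 96 start windows of the members' containing genes (26.0%), against 1429 of 35116 windows of all genes (4.07%). The core motif of TEAD, the DNA-binding partner of TAZ, was searched as GGAATG on either strand, from 250 bases before to 50 bases after the start. It was found in 7 of the 96 windows (7.29%), against 4928 of all windows (14.0%), and in none of the 6 windows printed. Of the 6 hosts named for comparison, 2 had it (33.3%), SNHG3 and SNHG12, whose windows are not printed because no member lies within them alone. These are letter matches in annotated windows and not measured sites, and a run of 0 does not place a host outside the oligopyrimidine class.

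Silencing was measured first. WWTR1 had a log2 signal of 7.64 with siTAZ and 10.04 with siNTC in A549, 5.27-fold lower. In H441 it had 7.47 with siTAZ and 9.61 with siNTC, 4.40-fold lower. Over both lines it fell by 2.27 ± 0.12 (limma SE, adjusted p = 1.55e-11). The median signal of all probe sets was 6.06 with siTAZ and 6.05 with siNTC in A549, and 6.25 with siTAZ and 6.17 with siNTC in H441. All 6 lung epithelial markers reached the table median of 6.13 on every array. NKX2-1, a lung lineage factor, was at 9.57 with siTAZ and 9.14 with siNTC in H441, against 5.01 and 5.02 in A549. Of 5 club or alveolar type II markers, 3 reached the table median on both H441 arrays: NKX2-1, SFTPB and NAPSA. SFTPC and SCGB1A1 stayed below the table median in H441. In A549 only SFTPC reached it, with 6.36 with siNTC, and it read 5.98 with siTAZ. Of other cell types, CD14 read 7.94 with siTAZ and 7.22 with siNTC in A549, while PTPRC and CD3E stayed below the median on all arrays, as did all 3 endothelial markers. COL1A1 read 7.72 with siTAZ and 7.31 with siNTC in A549, and 8.71 with siTAZ and 8.28 with siNTC in H441. LUM read 4.96 with siTAZ and 4.81 with siNTC in A549, and 6.98 with siTAZ and 7.46 with siNTC in H441. For siTAZ minus siNTC, COL1A2 and COL3A1 had -0.0009 and 0.0 in A549 and 0.24 and 0.17 in H441. PDGFRB had -0.08 in A549 and -0.01 in H441, and DCN 0.0081 and 0.005. The 6 fibroblast markers summed to log2 values of 8.73 with siTAZ and 8.54 with siNTC in A549, and 9.62 with siTAZ and 9.47 with siNTC in H441. The part of these markers in the results was not tested.

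Counting the multi-copy families, most small nucleolar RNA genes gave dim signals. A total of 86 members (44.8%) reached the table median on at least 1 array, against 12740 of all genes (69.3%). By class these were 48 SNORD genes (41.7%), 28 SNORA genes (45.9%) and 10 SCARNA genes (62.5%). The median of the mean signal over 4 arrays was 5.28 for SNORD, 5.88 for SNORA and 6.90 for SCARNA genes, against 6.85 for all genes. Without the multi-copy families SNORD113 to SNORD116, 42 of 69 SNORD genes reached the table median (60.9%), with a median signal of 6.32. The SNORD share and median were then above those of the SNORA genes. Leaving these families out of all members, 80 of 146 reached it (54.8%). Of the 182 members up to 200 bases long, 79 reached the median (43.4%), and of the 10 longer ones 7 did (70.0%), each of them a SCARNA gene. The RNA was purified on a silica column of a kind that recovers short RNA poorly, and its part in these levels was not tested. A probe set for an intronic RNA also matches the unspliced host transcript, so the mature RNA and its precursor cannot be told apart here. Nor can less RNA per cell be told apart from fewer cells that make it.

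The brightest member was SNORD33, a box C/D guide for 18S ribosomal RNA encoded in RPL13A, with 11.44 with siTAZ and 11.60 with siNTC in A549, and 11.38 with siTAZ and 11.07 with siNTC in H441. It was followed in mean signal by SNORD95, SNORD116-15, SNORD57, SNORD13 and SNORD28. SNORD95 read 9.17 with siTAZ and 9.18 with siNTC in A549, and 9.75 with siTAZ and 9.44 with siNTC in H441. These levels set the brightest members well above the table median on all 4 arrays in both lines. Log2 signals of different probe sets are not set against each other as amounts of RNA.

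Over both lines, 4 box C/D RNAs fell after siTAZ and no member rose: SNORD44, SNORD49A, SNORD79 and SNORD75. SNORD44, SNORD75 and SNORD79 all lie in GAS5 on chromosome 1, and SNORD49A lies in SNHG29 on chromosome 17. The 4 calls are 4.65% of the 86 members tested, against 1.29% of all 12740 genes called lower and 1.19% called higher (limma adjusted p under 0.05). At an unadjusted limma p under 0.05 there were 15 members (17.4%, against 13.2% of all genes), of which 13 were lower. All 11 SNORD genes among the 15 were lower, of 48 tested (22.9%), beside 3 of 28 SNORA genes (10.7%) and 1 of 10 SCARNA genes. These p-values rest on 1 pair of arrays in each of 2 lines, with no repeat of either, and 1 residual degree of freedom. The fit borrows a prior worth 22.3 degrees of freedom from all genes. All 4 calls were lost with cyclic loess scaling, with no filter on low signal and without the cell line block.

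SNORD44, a box C/D guide for 18S ribosomal RNA, read 6.84 with siTAZ and 7.53 with siNTC in A549, and 7.81 with siTAZ and 8.28 with siNTC in H441. It fell by 0.58 ± 0.12 on the log2 scale (limma SE, adjusted p = 0.00657). The siTAZ signal was 1.62-fold lower in A549, and in H441 1.39-fold lower. The siTAZ array was below the siNTC array in both lines, and the H441 arrays were both above the A549 arrays. SNORD49A, a guide for 28S ribosomal RNA, read 5.92 with siTAZ and 6.31 with siNTC in A549, and 6.23 with siTAZ and 6.83 with siNTC in H441. It fell by 0.50 ± 0.12 (limma adjusted p = 0.0226), and its siTAZ array in A549 lay below the table median. SNORD79 read 5.05 with siTAZ and 5.43 with siNTC in A549, and 6.36 with siTAZ and 6.91 with siNTC in H441. It fell by 0.47 ± 0.12 (limma adjusted p = 0.0322), and both A549 arrays were below the table median, so that in A549 the value is a difference of dim signals. SNORD75 read 6.35 with siTAZ and 6.86 with siNTC in A549, and 7.32 with siTAZ and 7.73 with siNTC in H441. It fell by 0.46 ± 0.12 (limma adjusted p = 0.0331), with siTAZ lower in both lines. The difference between the lines, A549 minus H441, was larger than that after siTAZ for SNORD44 (-0.86), SNORD79 (-1.40) and SNORD75 (-0.92), and smaller for SNORD49A (-0.41).

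Next by p, and short of the threshold, came SNORD4B and SNORD45B. SNORD4B, a box C/D RNA in RPL23A, read 5.46 with siTAZ and 6.09 with siNTC in A549, and 7.02 with siTAZ and 7.28 with siNTC in H441 (-0.45 ± 0.12, limma adjusted p = 0.0542). SNORD45B, an 18S guide in RABGGTB, read 5.69 with siTAZ and 6.05 with siNTC in A549, and 6.07 with siTAZ and 6.53 with siNTC in H441 (-0.40 ± 0.12, limma adjusted p = 0.0708). Both were lower with siTAZ in each line, and both lay below the table median on the A549 arrays. SNORD28 in SNHG1 had a smaller but more even difference, with 8.70 with siTAZ and 9.05 with siNTC in A549, and 8.92 with siTAZ and 9.22 with siNTC in H441 (-0.33 ± 0.12, limma adjusted p = 0.167). SNORA80B, an H/ACA RNA in ODC1, was the member nearest to a call in the other direction (0.39 ± 0.13, limma adjusted p = 0.116). It read 6.78 with siTAZ and 6.63 with siNTC in A549, and 7.33 with siTAZ and 6.69 with siNTC in H441.

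**Figure D1:**
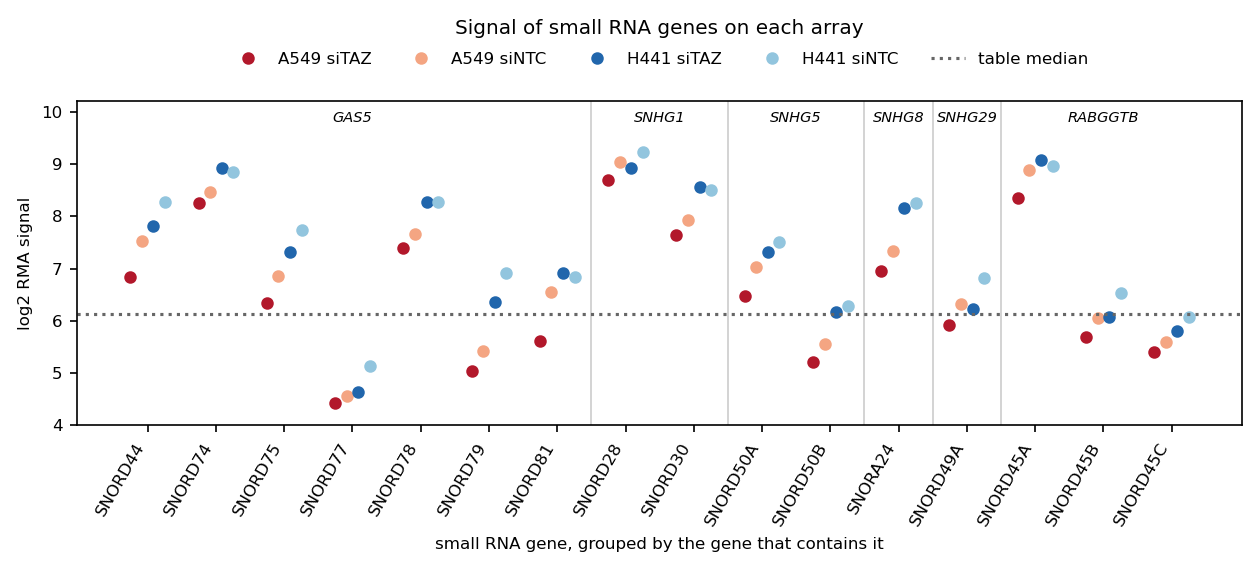
Log2 RMA signal of small RNA genes on each of the 4 arrays, grouped along the x axis by the gene that contains them; each point is 1 array and the dotted line is the table median of 6.13. The 7 genes inside GAS5 have the siTAZ point below the siNTC point in A549, by 0.13 to 0.94, and 5 of them do so in H441.

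GAS5 is a growth-arrest transcript whose introns hold a run of box C/D RNAs. All 7 GAS5 members were lower with siTAZ in A549, by -0.94 to -0.13 on the log2 scale with a median of -0.38. Of SNORD genes outside the multi-copy families, 31 of 34 kept in A549 were lower (91.2%), so that direction is not particular to GAS5. In H441 5 of 7 were lower, from -0.55 to 0.07 with a median of -0.41. With arrays centred on their medians, all 7 were lower in both lines. Centring also left 8317 of all 12740 tested genes lower in H441, against 6057 before it. In H441, 5 of 7 were lower with quantile scaling and 6 of 7 with cyclic loess. The 7 come from 1 host transcript and are not independent of each other, and the 3 that fell are part of this count.

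SNORD81, a 28S guide, had the largest difference of the 72 members kept in A549, with 5.61 with siTAZ and 6.55 with siNTC, 1.92-fold lower. In H441 it read 6.91 with siTAZ and 6.84 with siNTC. The direction thus differed between lines, and SNORD81 was not called over both lines (-0.44 ± 0.16, limma adjusted p = 0.173). SNORD78, another 28S guide, read 7.40 with siTAZ and 7.66 with siNTC in A549, and 8.26 with siTAZ and 8.28 with siNTC in H441. SNORD74, the brightest of the 7, read 8.25 with siTAZ and 8.47 with siNTC in A549, and 8.91 with siTAZ and 8.85 with siNTC in H441. SNORD77 was below the table median on every array and was not tested, with 4.43 with siTAZ and 4.56 with siNTC in A549, and 4.63 with siTAZ and 5.13 with siNTC in H441. The GAS5 members thus spread over 4.43 to 8.91 in signal, and their differences in H441 fall into a lower set, SNORD44, SNORD75, SNORD77 and SNORD79, and a set near 0, SNORD74, SNORD78 and SNORD81.

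The members in SNHG1, SNHG5 and SNHG8 were all lower with siTAZ in A549, and in H441 all but SNORD30 were. In A549, 56 of all 72 members kept were lower (77.8%), so that direction is not particular to these hosts. SNORD30, the other SNHG1 member and a 28S guide, read 7.65 with siTAZ and 7.92 with siNTC in A549, and 8.56 with siTAZ and 8.51 with siNTC in H441. SNORD50A, a 28S guide in SNHG5, read 6.47 with siTAZ and 7.03 with siNTC in A549, and 7.31 with siTAZ and 7.51 with siNTC in H441 (-0.38 ± 0.12, limma adjusted p = 0.114). Its neighbour SNORD50B read 5.21 with siTAZ and 5.56 with siNTC in A549, and 6.16 with siTAZ and 6.28 with siNTC in H441. Both SNHG5 members were lower with siTAZ in each line, by less in H441. SNORA24, the H/ACA RNA of SNHG8, read 6.96 with siTAZ and 7.33 with siNTC in A549, and 8.16 with siTAZ and 8.26 with siNTC in H441 (-0.23 ± 0.12, limma adjusted p = 0.413). None of these 5 members of SNHG1, SNHG5 and SNHG8 passed the test.

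Members of protein-coding hosts gave several patterns, and the 3 host groups here were named after their values were seen. The 3 members in RPL23A, SNORD4A, SNORD4B and SNORD42A, were lower with siTAZ in both lines, from -0.64 to -0.03 in A549 and from -0.40 to -0.25 in H441. All 3 were below the table median on both A549 arrays, so their A549 values are differences of dim signals. The 4 members in RPL13A were all lower in A549, from -0.20 to -0.10, and all higher in H441, from 0.07 to 0.31. With arrays centred on their medians, 1 of the 4 RPL13A members was lower in H441. The 3 members in RABGGTB were lower in A549, from -0.55 to -0.19. In H441 SNORD45B and SNORD45C were lower and SNORD45A was higher. SNORD45C was below the table median on every array, and SNORD45B on both A549 arrays. SNORD45A, the brightest of the 3 and an 18S guide, read 8.34 with siTAZ and 8.89 with siNTC in A549, and 9.07 with siTAZ and 8.96 with siNTC in H441. Of these groups, only that in RABGGTB held both signs in H441 before centring.

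In A549 alone, members lay mostly below 0, and all genes were balanced around it. Of the 72 members whose higher A549 array reached the table median, 56 were lower with siTAZ (77.8%), 15 were higher, and the median difference was -0.14. Of all 11405 genes kept by the same filter 48.4% were lower, with a median of 0.0051. Past 1.5-fold there were 2 members lower, SNORD81 and SNORD44 (2.78%, against 1.07% of all genes), and 0 higher (against 1.76%). A difference in a single line has no replicate and no p-value. SNORA22, an H/ACA RNA, and SNORD13P3 came next among the lower ones. SNORA22 read 7.29 with siTAZ and 7.87 with siNTC in A549, and 7.76 with siTAZ and 7.74 with siNTC in H441, 1.49-fold lower in A549 and level in H441. The members highest with siTAZ in A549 were SNORD116-20 at 0.38, and SNORA37 and SNORD116-15 at 0.29 each.

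By class, box C/D members were lowest in A549. Of 40 SNORD genes kept, 33 were lower (82.5%), with a median of -0.18 and a range of -0.94 to 0.38. Without the multi-copy families, 31 of 34 were lower (91.2%), with a median of -0.21. Of 22 SNORA genes, 16 were lower (72.7%) with a median of -0.14, and of 10 SCARNA genes, 7 were lower with a median of -0.04. The SNORD and SNORA medians were below 0 with each scaling tried and differed by 0.04, less than the range within either class. Taking all 192 members without a filter on signal, 127 were lower and 57 higher, with a median of -0.05. Among other small noncoding RNA genes, such as microRNA and small nuclear RNA genes, 21 of 38 kept were lower in A549, with a median of -0.03.

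**Figure D2:**
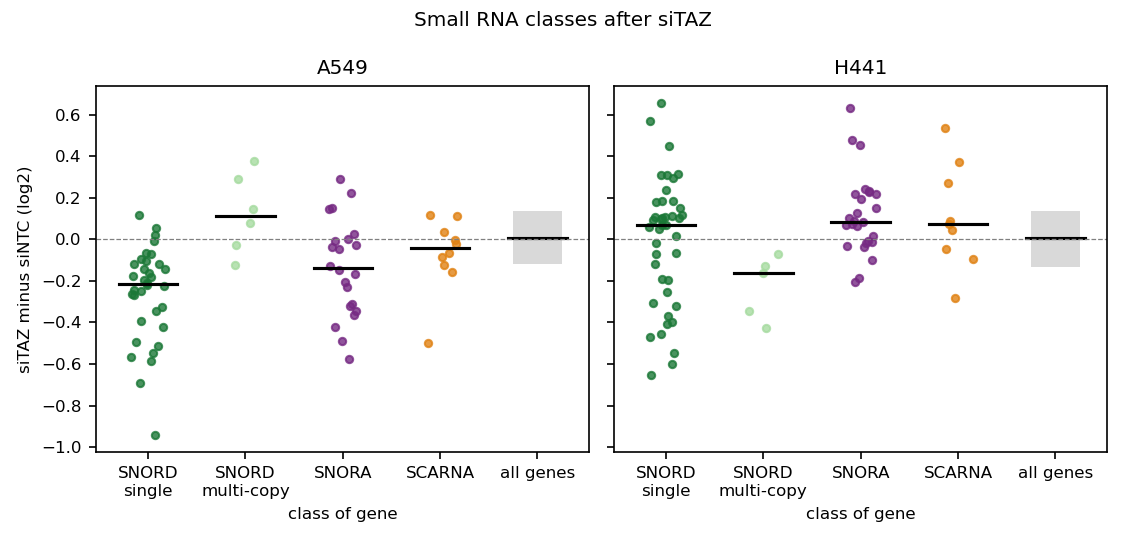
Difference after siTAZ (siTAZ minus siNTC, log2) in A549 and in H441 by class of gene; each point is 1 gene kept in that line, black bars are medians, and the grey box is the middle 50% of all genes. In A549 the median is -0.21 for SNORD genes outside the multi-copy families and -0.14 for SNORA genes, against 0.0051 for all genes, and in H441 the same medians are 0.07 and 0.08, against 0.0048.

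In H441 members lay on both sides of 0. Of 82 members kept there, 33 were lower (40.2%) and 49 higher, with a median of 0.07, against 48.8% lower and a median of 0.0048 in all 11911 genes kept. SNORD genes were split, with 22 lower and 25 higher and a median of 0.05. SNORA genes had 8 lower and 18 higher with a median of 0.08, and SCARNA genes 3 lower and 6 higher with a median of 0.07. These H441 directions depend on the scaling: with arrays centred on their medians, the SNORD median was -0.04, the SNORA median 0.0003 and the SCARNA median -0.01, because the siTAZ array of H441 had the higher median. Of the other small noncoding RNA genes kept in H441, 39 of 43 were higher, with a median of 0.11. Before centring, the members' median in H441 thus lay on the same side of 0 as that of the other small noncoding RNA genes. Probe sets with another gene's symbol beside a small nucleolar RNA symbol went the other way in H441, with 38 lower and 17 higher.

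Past 1.5-fold in H441, 2 members were lower, SNORD14C and SNORD49A (2.44%, against 0.974% of all genes), and 2 were higher, SNORD13P3 and SNORA80B (2.44%, against 0.479%). SNORD14C is a copy of U14, which in yeast is needed to process 18S ribosomal RNA, and lies in HSPA8. It read 6.93 with siTAZ and 7.58 with siNTC in H441, and 6.84 with siTAZ and 6.96 with siNTC in A549 (-0.39 ± 0.13, limma adjusted p = 0.131). SNORD13, an independently transcribed box C/D RNA that guides acetylation of 18S ribosomal RNA, read 8.78 with siTAZ and 8.21 with siNTC in H441, and 9.45 with siTAZ and 9.57 with siNTC in A549. SNORD13P3 is by name a pseudogene copy of SNORD13. It read 7.83 with siTAZ and 7.17 with siNTC in H441, and 8.80 with siTAZ and 9.38 with siNTC in A549, and signal of the parent gene and of other copies may reach its probes, so its values are uncertain. SNORD13 and SNORD13P3 were both higher with siTAZ in H441 and lower in A549. The copies SNORD13P1 and SNORD13P2 were below the table median on every array, with -0.03 and -0.02 in H441, and -0.13 and 0.25 in A549. Also among the members highest with siTAZ in H441 were the H/ACA RNAs SNORA51, in NOP56, at 0.48, and SNORA49, in EP400, at 0.46, both at -0.18 in A549. SCARNA7, which guides modification of the spliceosomal U1 RNA, read 9.84 with siTAZ and 9.31 with siNTC in H441, and 7.93 with siTAZ and 7.89 with siNTC in A549 (0.29 ± 0.13, limma adjusted p = 0.315).

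**Figure D3:**
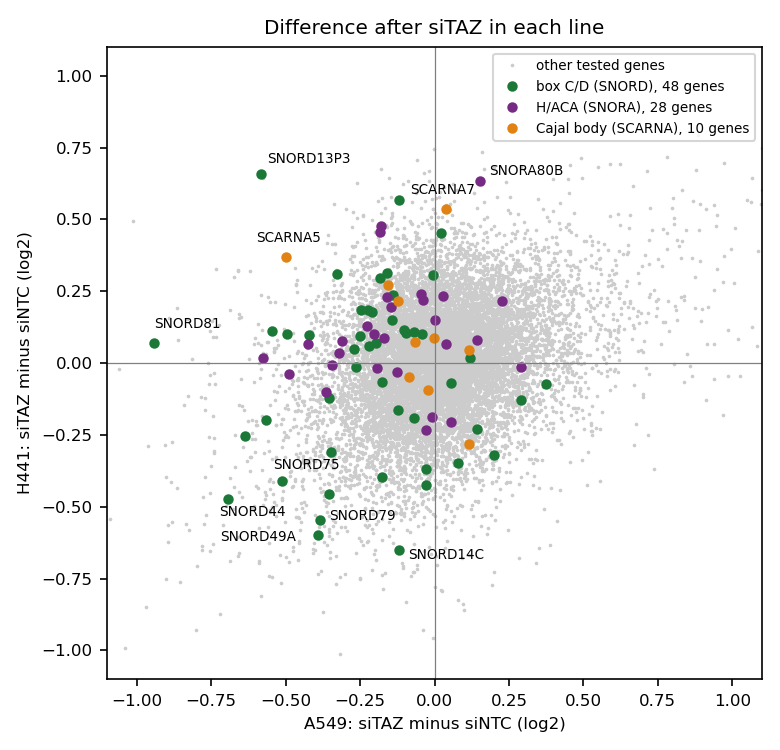
Difference after siTAZ (log2) in A549 on the x axis and in H441 on the y axis for the 86 members tested, coloured by class, over the other tested genes in grey; grey points beyond the axes are not drawn. SNORD44, SNORD49A, SNORD75 and SNORD79 lie in the lower left, and 41 members lie at upper left, lower in A549 and higher in H441.

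Set side by side, the lines gave opposite signs for many members. Of the 86 tested, 41 were lower in A549 and higher in H441 (47.7%), against 21.0% of all tested genes. Another 26 were lower in both lines (30.2%, against 27.2%), 9 higher in both (10.5%, against 30.3%), and 9 higher in A549 and lower in H441 (10.5%, against 20.1%). After centring, 33 members were lower in A549 and higher in H441 (38.4%, against 14.5% of all genes) and 35 were lower in both (40.7%, against 36.8%). Before centring, 22 of 46 other small noncoding RNA genes were lower in A549 and higher in H441 (47.8%), a share close to that of the members. After centring 14 of 46 were (30.4%), below the members' 38.4%. The difference between the lines' responses could not be tested with 4 arrays.

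A few members were higher with siTAZ in both lines, none past the test. SNORA80E read 6.37 with siTAZ and 6.14 with siNTC in A549, and 6.26 with siTAZ and 6.04 with siNTC in H441 (0.22 ± 0.12, limma adjusted p = 0.431). SNORA52 and SNORA65, H/ACA RNAs in the ribosomal protein genes RPLP2 and RPL12, had differences of 0.14 and 0.04 in A549 and 0.08 and 0.07 in H441. SNORA10, in RPS2, had 0.03 in A549 and 0.23 in H441. SCARNA17 read 9.64 with siTAZ and 9.53 with siNTC in A549, and its other probe set had a difference of -0.03 there, so even its sign is not settled in that line.

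The hosts that could be measured differed little after siTAZ, and their differences were not ordered like those of their members. Of the members within exactly 1 gene, 88 had a host with a probe set of its own, from 67 different hosts. In A549, 32 pairs of member and host were both kept, from 26 hosts, with a median difference of -0.10 for members and -0.11 for hosts. In H441, 40 pairs from 32 hosts had medians of 0.09 for members and -0.08 for hosts, and 10 of the 40 members lay below their host. Across pairs, Pearson's r was -0.23 and Spearman's rho -0.19 in A549, and 0.09 and 0.22 in H441. The pairs share arrays, and some share a host, so these are descriptions only. None of these hosts was past 1.5-fold in either line.

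**Figure D4:**
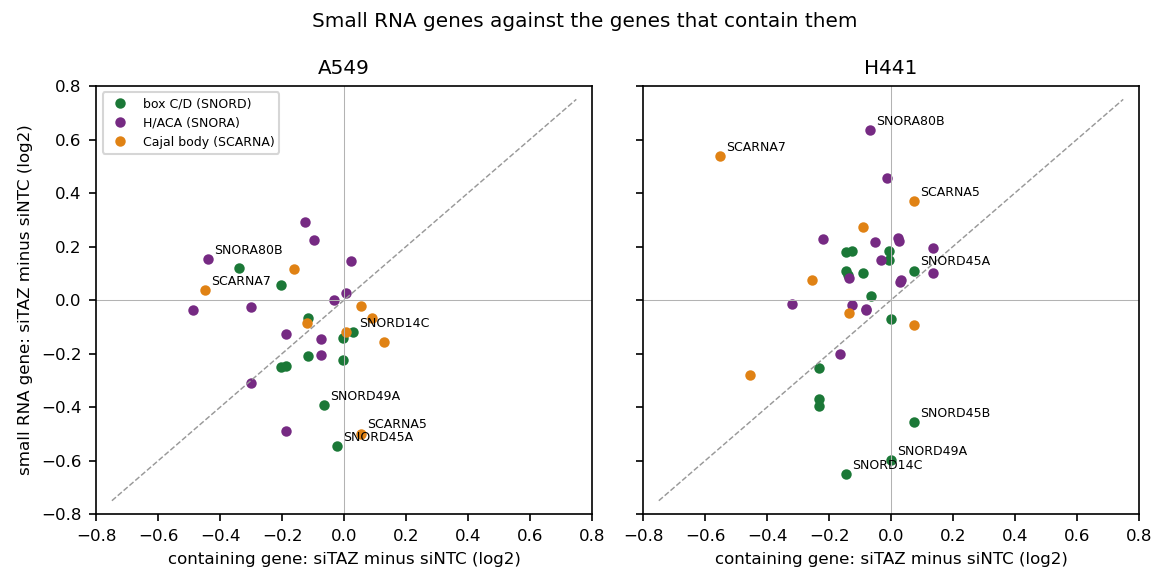
Difference after siTAZ (log2) of each small RNA gene on the y axis against that of the gene containing it on the x axis, in A549 and in H441; the dashed line marks equal differences. The 32 pairs in A549 and 40 in H441 do not follow the line, with Pearson's r of -0.23 and 0.09.

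Single pairs give the values. SNHG29, which holds SNORD49A, read 11.08 with siTAZ and 11.14 with siNTC in A549, and 11.37 with both siRNAs in H441, while SNORD49A differed by -0.39 in A549 and -0.60 in H441. RABGGTB, a subunit of the enzyme that attaches lipid to Rab proteins, differed by -0.02 in A549 and by 0.07 in H441, against -0.35 and -0.46 for SNORD45B. HSPA8, a constitutive chaperone, had 0.03 and -0.14, against -0.12 and -0.65 for SNORD14C. ODC1, which makes putrescine, had -0.44 and -0.07, against 0.15 and 0.63 for SNORA80B. RPL23A had -0.08 and -0.23, and its 3 members were lower in both lines as well, though below the table median in A549. Of the 65 hosts tested, 2 were called (3.08%), both lower, against 1.29% of all genes called lower and 1.19% called higher, and they were named after their values were seen. KPNA4, an importin that carries proteins into the nucleus, fell by 0.50 over both lines, with -0.45 in A549 and -0.55 in H441 (limma adjusted p = 0.0194), while its member SCARNA7 had 0.04 and 0.54. COBLL1 fell as well, with -0.48 in A549 and -0.43 in H441 (limma adjusted p = 0.0348), and its member SNORA70F was below the table median. Both host calls were lost with quantile scaling (limma adjusted p = 0.0646 for KPNA4 and 0.0719 for COBLL1), cyclic loess (0.119 and 0.118), no filter (0.077 and 0.101) and no cell line block (1 for each).

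Genes for the proteins that bind, assemble and trim these RNAs had small median differences, with more genes lower than higher in each line. Of a list of such genes, 24 were measured and tested. By limma 1 was called higher and 0 lower, against 1.19% and 1.29% of all genes. At an unadjusted limma p under 0.05 there were 3 (12.5%, against 13.2% of all genes). The list's median was -0.11 in A549, with 18 of 24 lower, and -0.07 in H441, with 17 of 24 lower. In H441, 21 of 24 were lower with arrays centred on their medians, and 14 of 24 with quantile or cyclic loess scaling. Of all 12740 tested genes, 6178 were lower in A549 and 6057 in H441. In H441, 8317 of them were lower after centring, 5917 with quantile scaling and 6169 with cyclic loess. FBL, the box C/D methyltransferase fibrillarin, read 11.00 with both siRNAs in A549, and 10.41 with siTAZ and 10.42 with siNTC in H441. NOP58, its partner in the box C/D particle, differed by -0.014 in A549 and by -0.0046 in H441, and NOP56 had no single-symbol probe set. DKC1, the H/ACA pseudouridine synthase, read 9.59 with siTAZ and 9.78 with siNTC in A549, and 10.31 with siTAZ and 10.37 with siNTC in H441. The core enzymes of both classes thus differed by at most 0.20 on the log2 scale within a line.

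TENT4B, a poly(A) polymerase that adds short tails to nuclear noncoding RNAs and whose tails PARN removes, was the 1 gene called. It read 7.89 with siTAZ and 7.34 with siNTC in A549, and 8.50 with siTAZ and 8.11 with siNTC in H441. It rose by 0.47 ± 0.12 (limma adjusted p = 0.0301), a call lost with quantile scaling (adjusted p = 0.0716), cyclic loess (0.12), no filter (0.0974) and no cell line block (1). PARN read 9.35 with siTAZ and 9.46 with siNTC in A549, and 9.40 with siTAZ and 9.70 with siNTC in H441. The assembly factor ZNHIT6 read 8.78 with siTAZ and 9.00 with siNTC in A549, and 9.59 with siTAZ and 10.16 with siNTC in H441 (-0.40 ± 0.12, limma adjusted p = 0.0908). GAR1, an H/ACA core protein, was lower with siTAZ in A549 by a difference of -0.31 and higher in H441 by 0.25. RPAP3 had -0.04 and -0.49, NAF1 -0.32 and -0.12, RRP9 -0.29 and -0.12, and TCOF1 -0.18 and -0.21 in A549 and H441. Of 8 genes of the nuclear exosome and of RNA decay, 0 were called by limma, against 1.19% of all genes higher and 1.29% lower. At an unadjusted limma p under 0.05 there were 0, against 13.2% of all genes.

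Most genes of the multi-copy box C/D families of imprinted regions stayed below the table median. None of 20 SNORD115 genes reached the table median on any array, nor did 2 SNORD113 and 4 SNORD114 genes. Of 20 SNORD116 genes, which lie in SNHG14 on chromosome 15 in the region lost in Prader-Willi syndrome, 6 reached it. SNORD116-15 read 9.55 with siTAZ and 9.26 with siNTC in A549, and 9.17 with siTAZ and 9.30 with siNTC in H441. SNORD116-20 read 8.16 with siTAZ and 7.78 with siNTC in A549, and 7.61 with siTAZ and 7.68 with siNTC in H441. SNORD116-24 read 6.46 with siTAZ and 6.49 with siNTC in A549, and 6.84 with siTAZ and 7.26 with siNTC in H441. Of the 6, 4 were higher with siTAZ in A549 and all 6 were lower in H441, with medians of 0.11 and -0.20. Copies of a family are near-identical in sequence, so their probe sets may read one another and are not independent.

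**Figure D5:**
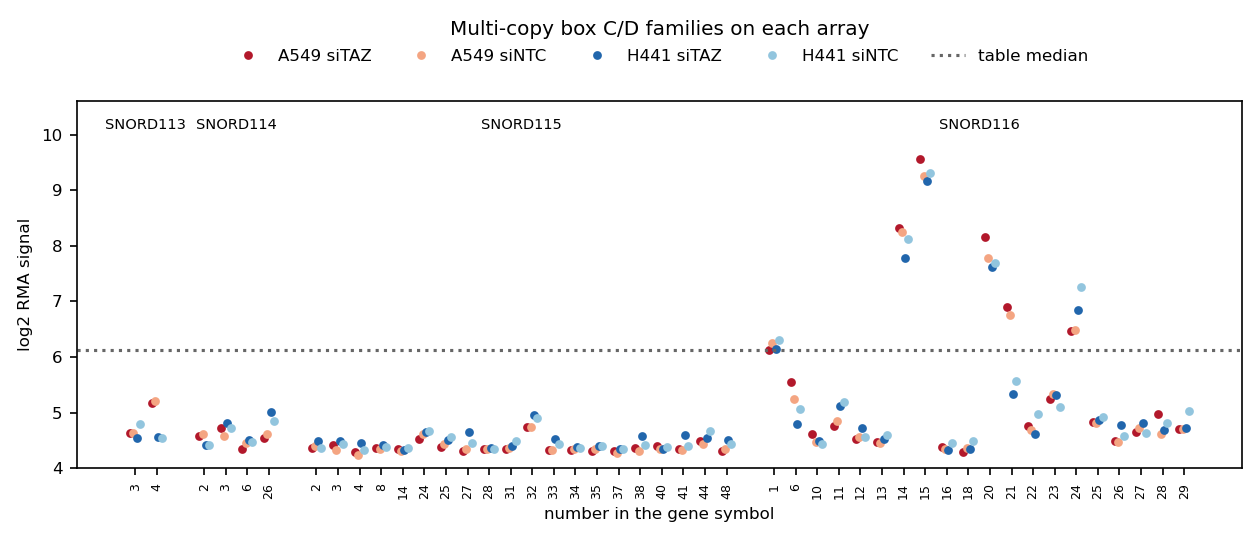
Log2 RMA signal of the multi-copy box C/D families on each of the 4 arrays, ordered by the number in the gene symbol; the dotted line is the table median of 6.13. All SNORD115 genes lie below the line, and 6 SNORD116 genes reach it, SNORD116-15 highest at 9.17 to 9.55.

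The 2 cell lines differed far more than the 2 siRNAs. From the same fit, 12 members were higher in A549 than in H441 and 47 were lower (14.0% and 54.7% of 86, limma), against 19% and 52.8% of all genes. Each line stands on its siTAZ and siNTC arrays, without a repeat of either. The p-values between lines thus do not measure the spread between cultures of a line. The median difference, A549 minus H441, was -0.33 for members and -0.31 for all genes, so all genes were offset between the lines by nearly as much as the members. With quantile normalization the counts were 19 higher and 29 lower, and with cyclic loess 19 and 26, with all-gene medians of -0.0003 and 0.0152. Of the classes, SNORD genes had 10 higher and 27 lower, SNORA genes 0 and 14, and SCARNA genes 2 and 6.

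SCARNA17 had the largest difference toward A549, with 9.64 with siTAZ and 9.53 with siNTC in A549, against 7.69 and 7.65 in H441 (1.91 ± 0.12, limma adjusted p = 4.39e-13, 3.77-fold higher). SNORD13P3 (1.59), SNORD116-21 (1.38) and SNORD13 (1.01) followed on the log2 scale, and SNORD116-21 read 6.90 and 6.76 in A549, against 5.33 and 5.56 in H441. SCARNA8, SNORD57, SNORD34 and SNORD35A were higher in A549 by 0.72, 0.70, 0.69 and 0.55. SCARNA7 had the largest difference toward H441, with 7.93 with siTAZ and 7.89 with siNTC in A549, against 9.84 and 9.31 in H441 (-1.66 ± 0.13, limma adjusted p = 3.32e-11, 3.17-fold lower in A549). It was followed by SNORD79 (-1.40), SNORD4B (-1.38), SNORD15B (-1.29), SCARNA6 (-1.29), SCARNA10 (-1.15), SNORD52 (-1.12) and SNORD42A (-1.09). All of these 16 calls held in each scaling and filter that tested the gene. Of the GAS5 members tested, all 6 were lower in A549, from -1.40 to -0.53, whereas the 4 RPL13A members were higher in A549, from 0.28 to 0.69.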

How the data were processed

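Total RNA from 4 samples was measured on Affymetrix whole-transcript arrays. The authors deposited log2 signals of 28869 probe sets, made with RMA according to the submitters' processing notes. No version, software or genome build is named in the sources used here. The range of 4.20 to 14.83 shows a log2 scale, and RMA compresses differences of dim probe sets. The platform annotation gave a single symbol to 19310 probe sets, several to 1752 and none to 7807. The 192 members had 198 probe sets. The brightest was used for the 5 members with several, and those of SCARNA17 disagreed in sign in A549. The dimmer probe set of SCARNA9 differed by -1.02 in H441, against -0.28 for the one used.

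Within a line, siTAZ minus siNTC was taken for genes whose higher array reached the table median of 6.13. Over both lines, limma 3.58.1 (R 4.3.3, two-sided) was fitted to 12740 genes whose highest array reached that median, with cell line as a block, and p-values were Benjamini-Hochberg adjusted over all of them. The labels give no replicate numbers, so the cell line pairs the arrays. Precision is limited by 1 array per group.

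Members and lists were chosen with earlier results of these data known. Named genes are the members inside the 6 hosts, those called, the 8 per direction with the largest same-sign difference in both lines, the 6 per direction and line, 8 per direction between lines, the 6 brightest and the 8 largest of the list of binding proteins. Others were named after their values were seen, and 1 gene that the rule names is not reported here. Alternatives were array centring, quantile and cyclic loess scaling, other signal filters, the mean of probe sets, an intensity trend, no cell line block, other fold thresholds, and leaving out multi-copy or long members.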

Additional observations from a re-analysis of the deposited data

Results flagged for a closer look

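Of the 86 members that reached the table median, 3 had differences of opposite sign in the lines, at least 1.2-fold in each. With 1 array per group the difference between the lines' responses was not tested, and no cause was tested. SCARNA5, a Cajal body RNA in ATG16L1, differed by -0.50 in A549 (6.07 with siTAZ and 6.57 with siNTC) and by 0.37 in H441 (7.58 with siTAZ and 7.21 with siNTC), while ATG16L1 itself differed by 0.05 and 0.07. SNORD13P3 differed by -0.58 in A549 (8.80 with siTAZ and 9.38 with siNTC) and by 0.66 in H441 (7.83 with siTAZ and 7.17 with siNTC), and its probes may also read SNORD13. SNORD57, an 18S guide, differed by -0.33 in A549 (9.41 with siTAZ and 9.74 with siNTC) and by 0.31 in H441 (9.02 with siTAZ and 8.71 with siNTC). These values are before centring, which lowers every H441 difference. After it SNORD57 falls short of 1.2-fold in H441, and SCARNA5 and SNORD13P3 do not. The share of all tested genes that meets the same rule was not counted.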

How the results depend on the processing

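The 4 members called lower over both lines became 8 with arrays centred on their medians (SNORD45B, SNORD4B, SNORD50A and SNORD81 added), 1 with quantile normalization (SNORD44), 0 with cyclic loess, 0 with no signal filter, 1 with a filter at the 75th percentile, which left 27 members, and 0 with no replicate block, that is, without the cell line. Cyclic loess called 20 genes in all, with 14 members at an unadjusted limma p under 0.05, no filter had 23 such members, and no block had 0. Each of the 4 was lower with siTAZ in either line alone, a check added after seeing the data. The calls rest on the same 4 arrays and favour genes that are alike in both lines, so this check is no separate support. Adjusted limma p was 0.0411 for SNORD44, 0.0502 for SNORD49A, 0.0795 for SNORD75 and 0.0688 for SNORD79 under quantile normalization. Under cyclic loess the 4 had 0.0853, 0.118, 0.118 and 0.119, in the same order. With an intensity trend SNORD79 had an adjusted limma p of 0.064 and was not called, and SNORD4B was called in its place. Members past 1.5-fold lower in A549 (2) numbered 5 with centring, 6 with quantile normalization, 0 at the 75th percentile, 13 at a 1.3-fold threshold and 0 at 2-fold. In H441 the 2 lower were 3 with the mean of a gene's probe sets, 0 at the 75th percentile, 8 at 1.3-fold and 0 at 2-fold, and the 2 higher were 0 with centring, 0 at the 75th percentile, 7 at 1.3-fold and 0 at 2-fold. Between lines, 12 higher in A549 became 18 with centring, 19 with quantile normalization, 19 with cyclic loess and 8 at the 75th percentile. The 47 lower became 34, 29, 26 and 13 under the same settings, and 67 with no filter. Without a filter, A549 medians were -0.0641 for SNORD and -0.0453 for SNORA, and H441 medians -0.0173 for SNORD and -0.0132 for SCARNA. SCARNA in A549 had 0.0155 at the 75th percentile and -0.12 without members over 200 bases. In H441, centring gave -0.0361 for SNORD, 0.0003 for SNORA and -0.0106 for SCARNA, quantile normalization gave 0.0214 and cyclic loess -0.0001 for SNORD, the 75th percentile gave 0.15 for SNORA and 0.25 for SCARNA, and leaving out members over 200 bases gave 0.18 for SCARNA. Unless a value or the smaller number of members tested shows it, the cause was not tested. Every other class median kept its sign and moved by less than 0.05, and every other count stayed within 1.5 times. Single arrays and dim signals limit all of these values.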

Other observations

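A further 76 probe sets carry a small nucleolar RNA symbol together with another gene's symbol and were not named. In A549, 51 of them were kept, of which 47 were lower with siTAZ and 4 higher, with a median of -0.18. In H441, 55 were kept, of which 38 were lower and 17 higher, with a median of -0.10. The single-symbol members had 33 lower and 49 higher in H441, with a median of 0.07, so the direction there differed by kind of probe set. Of all genes kept, 48.4% were lower in A549 and 48.8% in H441. Such probe sets can read the host as well as the small RNA.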
